A study of Mus musculus with 4 samples.

Results

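The genes described here code for matricellular proteins, which are secreted into the tissue during repair, and for the secreted protease inhibitor Timp1. The group comprised 10 genes: Postn, Tgfbi, Thbs1, Thbs2, Thbs4, Sparc, Fstl1, Tnc, Timp1 and Spp1. They were chosen by name, with earlier results of these data known. A gene was measured where a probe set carried its symbol and no other, and 9 of the 10 were, among 22180 genes named in this way. The RNA level of Spp1, the gene of osteopontin, was not analysed here. Each of the 9 had 1 probe set, and all passed the intensity filter described below.

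Matricellular proteins lie in the extracellular matrix without being its main load-bearing material. They bind collagen, growth factors, proteases and the integrins and other receptors of nearby cells, and so tune how cells attach, migrate and rebuild tissue. In the wild-type muscle measured here their levels differed from gene to gene, as given below. After injury, fibroblasts, macrophages, tendon cells and regenerating fibres are known to release them.

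Total RNA from the quadriceps, a thigh muscle, was measured on Affymetrix whole-transcript arrays, 1 array per mouse sample. The double transgenic group (dbTg) carried transgenes for NF90 and NF45, partners in a complex that binds double-stranded RNA, and held a male and a female, both 16 weeks old. The wild-type group (WT) held a male of 17 to 18 weeks and a female of 16 weeks. In both groups replicate 1 was the male and replicate 2 the female. The promoter that drives the transgenes and the strain are not stated in the sources used here. The values are RMA values, which are background-corrected, quantile-normalized and on the log2 scale, so that a difference of 1 is 2-fold. Ilf2, the gene of NF45, read 10.36 and 10.16 in dbTg and 5.03 and 5.04 in WT. Array medians lay between 1.55 and 1.60, and the upper quartile of an array's values was 2.99 and 2.98 in dbTg and 2.80 and 2.78 in WT. Markers of skeletal muscle fibres gave summed levels of 14.06 and 13.99 (log2) in dbTg and 14.04 and 14.10 in WT. Precision is limited by the 4 arrays, and in bulk tissue fewer cells of a type and less RNA per cell cannot be told apart.

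Muscle of dbTg mice had more Postn RNA, and 5 further members were higher on both dbTg arrays than on both WT arrays without passing the test. Groups were compared with limma, p-values were adjusted by Benjamini-Hochberg across 13308 tested genes, and calls were made at 0.05. Postn alone was called higher, 1 of 9 members, where 2.01% of all tested genes were called higher. No member was called lower, where 0.203% of all tested genes were, and none was lower at an unadjusted p under 0.05, where 4.64% were. At an unadjusted p under 0.05, 5 of the 9 were higher, against a background of 14% of tested genes. Both dbTg arrays lay above both WT arrays for 6 of the 9, and for 33.7% of tested genes. The reverse held for 0 of the 9 and for 16.3% of tested genes. The median difference of the members was 0.92, and that of all tested genes 0.089. Since the members were chosen with earlier results known, these counts and medians describe them and are not a test. The lowest value of any member on any array was 1.81, above the filter of 1.48, so no member depended on its higher group to be tested.

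**Figure D1:**
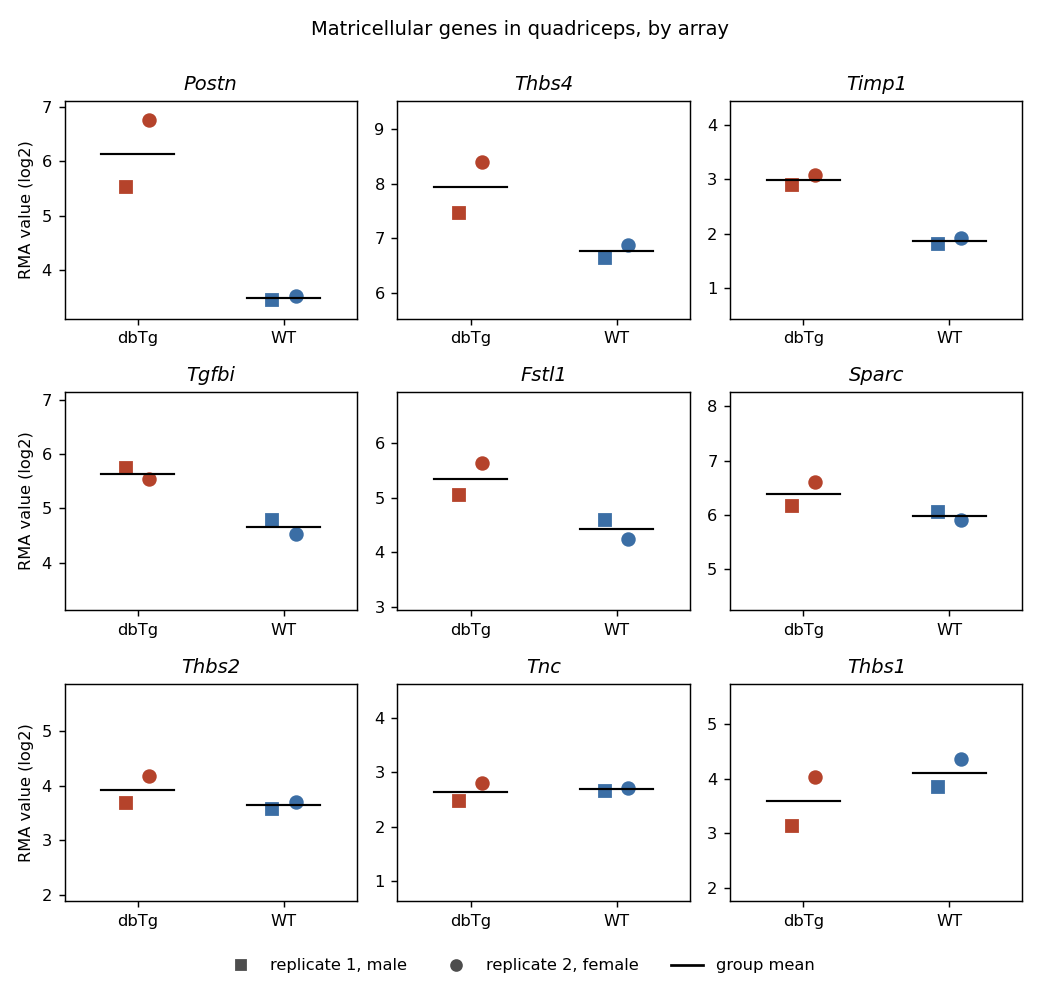
RMA values (log2) of the 9 measured members in each sample, dbTg left and WT right. Squares are the males (replicate 1), circles the females (replicate 2) and bars the group means, and every panel spans 4 log2 units. Postn stands farthest apart, at 5.52 and 6.76 in dbTg and 3.46 and 3.52 in WT, while the groups of Tnc, Thbs1 and Thbs2 overlap.

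Postn and Tgfbi code for periostin and the protein induced by transforming growth factor beta (TGF-beta), which share a build of repeated fasciclin domains and bind integrins and collagen. Periostin is made mainly by activated fibroblasts and is known to promote the crosslinking of collagen. Postn read 5.52 and 6.76 in dbTg and 3.46 and 3.52 in WT. Both dbTg arrays were far above both WT arrays, the closest pair being 1.99 apart, and the dbTg arrays differed from each other by more than the WT arrays did. The means were 6.14 ± 0.88 in dbTg and 3.49 ± 0.05 in WT (SD, n = 2 each). Postn rose 6.26-fold (log2 difference 2.65, SE 0.38, 95% interval 1.74 to 3.55, limma adjusted p = 0.027). Of all tested genes, 0.248% had a larger difference. The call was lost under 4 of 12 other settings, among them without dbTg replicate 1 (difference 3.27, adjusted p = 0.0755), without dbTg replicate 2 (2.02, adjusted p = 0.151) and after quantile normalization (2.51, adjusted p = 0.054).

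Tgfbi read 5.74 and 5.54 in dbTg and 4.78 and 4.53 in WT. The groups did not overlap, and the spread within each was small beside the gap between them. Its means were 5.64 ± 0.14 in dbTg and 4.66 ± 0.17 in WT (SD, n = 2 each). The difference was 0.98 (SE 0.19, 95% interval 0.53 to 1.44) with a limma adjusted p of 0.0555, just outside the threshold. It passed under 4 of 12 other settings, with adjusted p from 0.0236 to 0.354. Unlike the other members, Tgfbi was higher in dbTg replicate 1 than in dbTg replicate 2.

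The sequences before the start sites of the genes with the 4 largest differences are shown here and below, as the stretches of DNA from which these members are transcribed. Sequences are from RefSeq (GRCm38.p6), written 5′ to 3′ and ending at the base before the annotated start. Capitals mark matches to 5 short motifs, named further below. Postn has 2 annotated starts, and the array does not tell which was used.
Postn, first start, chr3:54359017-54359266, plus strand: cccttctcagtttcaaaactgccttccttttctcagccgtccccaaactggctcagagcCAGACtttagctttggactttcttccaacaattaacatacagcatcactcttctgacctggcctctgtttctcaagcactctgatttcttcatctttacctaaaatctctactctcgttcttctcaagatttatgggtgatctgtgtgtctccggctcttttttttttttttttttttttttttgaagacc
Postn, second start, chr3:54360857-54361106, plus strand: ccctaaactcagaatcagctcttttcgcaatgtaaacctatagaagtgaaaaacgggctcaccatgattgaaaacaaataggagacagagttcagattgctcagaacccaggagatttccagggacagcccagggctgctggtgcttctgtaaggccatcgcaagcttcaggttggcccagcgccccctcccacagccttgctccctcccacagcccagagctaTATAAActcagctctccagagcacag
Tgfbi, chr13:56609336-56609585, plus strand: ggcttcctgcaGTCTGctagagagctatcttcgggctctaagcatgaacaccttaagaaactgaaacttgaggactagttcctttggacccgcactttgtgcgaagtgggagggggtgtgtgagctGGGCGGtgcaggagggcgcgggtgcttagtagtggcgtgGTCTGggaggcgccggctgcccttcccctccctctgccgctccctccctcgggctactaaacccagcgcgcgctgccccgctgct
In Postn the second start has a TATAAA match 26 to 21 bases before it, the usual place of a TATA box. The first start has none and lies after a run of T. Tgfbi has no such match and is richer in G and C, at 62.4% of bases against 40.4% and 52% for the Postn starts.

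**Figure D2:**
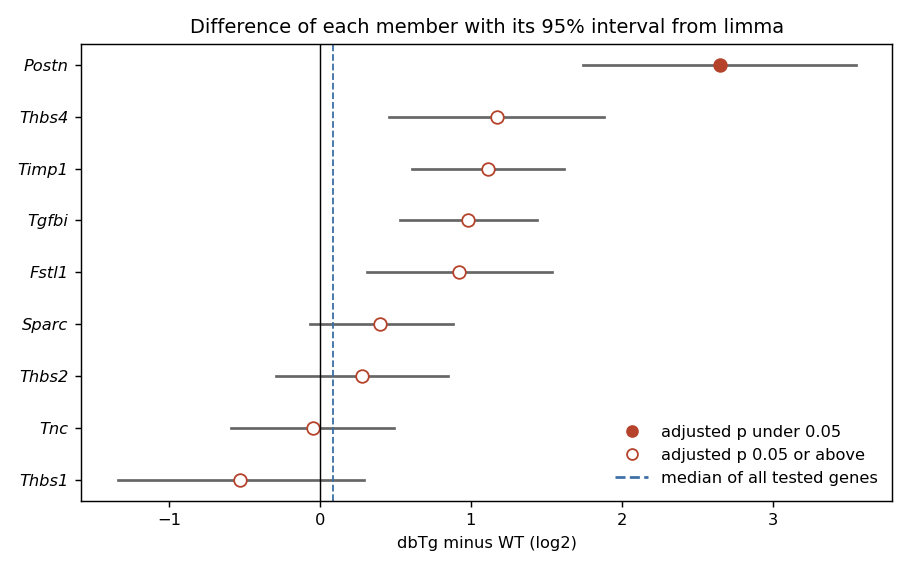
Difference of each measured member, dbTg minus WT (log2), with its 95% interval from limma. The filled point passed the adjusted threshold, open points did not, and the dashed line is the median of all tested genes, 0.089. Postn lies at 2.65, and the intervals of Thbs4, Timp1, Tgfbi and Fstl1 lie above 0.

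The thrombospondins are large calcium-binding glycoproteins, and the 3 members differed in direction. Thbs4 is a pentameric form found in tendon and in muscle, where it is known from repair and attachment of the fibre membrane. Thbs4 read 7.46 and 8.40 in dbTg and 6.64 and 6.87 in WT. Both dbTg arrays were above both WT arrays, and dbTg replicate 2 was the highest by far. The means were 7.93 ± 0.67 in dbTg and 6.76 ± 0.16 in WT (SD, n = 2 each), a difference of 1.17 (SE 0.30, 95% interval 0.46 to 1.88, limma adjusted p = 0.102). That difference was 1.65 without dbTg replicate 1 and 0.70 without dbTg replicate 2, and none of the 12 other settings called it. The sequence before its start is rich in G and C (70.8%) and has neighbouring matches to CATTCC that share a base.
Thbs4, chr13:92794819-92795068, minus strand: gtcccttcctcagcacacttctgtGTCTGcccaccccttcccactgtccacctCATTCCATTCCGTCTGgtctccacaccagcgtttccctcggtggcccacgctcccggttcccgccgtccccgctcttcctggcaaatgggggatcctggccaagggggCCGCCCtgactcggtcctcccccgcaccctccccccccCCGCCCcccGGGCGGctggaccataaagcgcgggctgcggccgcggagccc

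Thbs1 and Thbs2 are trimeric thrombospondins that block blood vessel growth. Thbs1 also activates latent TGF-beta and is the form stored in platelets. Thbs1 read 3.13 and 4.03 in dbTg and 3.85 and 4.36 in WT. The groups overlapped, since dbTg replicate 2 was above WT replicate 1. Its difference was -0.53 (SE 0.34, 95% interval -1.34 to 0.29, limma adjusted p = 0.466), the lowest of the 9 members, and it was -0.08 without dbTg replicate 1 and -0.98 without dbTg replicate 2. Markers of platelets and megakaryocytes were near the filter in all samples, at median levels of 1.89 and 1.98 in dbTg and 1.94 and 1.79 in WT over 3 tested genes of 6 named. Gp9 and Itga2b, both parts of platelet receptors, differed by 0.07 and 0.11. Thbs2 read 3.68 and 4.17 in dbTg and 3.58 and 3.70 in WT, and these groups overlapped as well. Its difference was 0.28 (SE 0.24, 95% interval -0.29 to 0.85, limma adjusted p = 0.585). It was 0.53 without dbTg replicate 1 and 0.04 without dbTg replicate 2. Differences between the 3 thrombospondins were not tested against each other.

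Sparc and Fstl1 belong to one family of secreted glycoproteins with a follistatin-like domain. Sparc, also called osteonectin, binds collagen and helps its assembly. Sparc read 6.16 and 6.60 in dbTg and 6.05 and 5.91 in WT. The groups did not overlap, though the closest pair was only 0.11 apart, less than the 0.44 between the dbTg arrays. The difference was 0.40 (SE 0.20, 95% interval -0.07 to 0.88, limma adjusted p = 0.335). It was 0.62 without dbTg replicate 1 and 0.18 without dbTg replicate 2. Fstl1, known as a factor released by muscle and by fibroblasts, read 5.05 and 5.64 in dbTg and 4.60 and 4.24 in WT. The groups stood apart by 0.45 at the closest. Its difference was 0.92 (SE 0.26, 95% interval 0.31 to 1.54, limma adjusted p = 0.122), and none of the 12 other settings called it.

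Tnc codes for tenascin-C, a large many-armed glycoprotein of tendon, of the junction of muscle and tendon, and of healing wounds. Tnc read 2.46 and 2.79 in dbTg and 2.65 and 2.71 in WT. The WT arrays lay between the dbTg arrays. The difference was -0.05 (SE 0.23, 95% interval -0.59 to 0.49, limma adjusted p = 0.935), an interval that holds changes in both directions.

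Timp1 codes for a secreted inhibitor of matrix metalloproteinases, the enzymes that degrade collagen and other matrix proteins. Timp1 read 2.89 and 3.07 in dbTg and 1.81 and 1.92 in WT. The groups did not overlap and the arrays within each group lay close together. The means were 2.98 ± 0.13 in dbTg and 1.87 ± 0.08 in WT (SD, n = 2 each). The difference was 1.11 (SE 0.21, 95% interval 0.61 to 1.62), with a limma adjusted p of 0.0541, just outside the threshold. It passed under 6 of 12 other settings, with adjusted p from 0.0417 to 0.397. The gene is X-linked, and the difference was 1.07 between the males and 1.15 between the females. Its upstream sequence has a match to CCGCCC that ends 3 bases before the start.
Timp1, chrX:20869916-20870165, plus strand: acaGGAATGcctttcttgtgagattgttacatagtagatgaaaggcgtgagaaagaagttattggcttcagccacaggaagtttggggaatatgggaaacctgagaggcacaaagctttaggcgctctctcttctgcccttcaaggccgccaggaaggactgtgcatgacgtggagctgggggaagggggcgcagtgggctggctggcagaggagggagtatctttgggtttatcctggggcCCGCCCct

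Over the group as a whole, 9 of the 10 members had a sequence in the RefSeq table, 12 starts in all, and Thbs1 did not. The 250 bases before each start were searched on both strands for TATAAA, for the AP-1 motif TGANTCA, for the core SMAD motif CAGAC, for the TEAD motif GGAATG and for the Sp1 motif GGGCGG. The TATAAA motif was found before 5 of the 12 starts (4 genes: Postn, Spp1, Tnc and Thbs2), and before 12.4% of 32851 starts of all genes. Only the match of the second Postn start, at 26 to 21 bases, lay at the usual place of a TATA box. The others lay farther off, at 211 to 206 bases for Spp1 and 126 to 121 for Thbs2. For the 2 Tnc starts the match lay at 126 to 121 and at 205 to 200 bases. The windows of the 2 Tnc starts overlap, so that 1 TATAAA and 1 GGGCGG of Tnc count at both. CAGAC was found before 8 of the 12 (42.2% of all), GGGCGG before 6 (32.7%) and GGAATG before 2, those of Thbs4 and Timp1 (12.6%). TGANTCA was found before 0 of the 12 (6.75%). A match is a description of the letters and says nothing about binding. Members with the larger differences shared no motif throughout: CAGAC stood before Postn, Thbs4 and Tgfbi but not before Timp1 or Fstl1, and it also stood before Thbs2, Sparc, Tnc and Spp1. GGGCGG stood before Thbs4, Timp1, Tgfbi and Fstl1 but before neither Postn start, and it also stood before both Tnc starts.

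The members were not spread evenly over the mice. The dbTg female had more RNA than the dbTg male for 8 of the 9 members, Tgfbi being the exception, while 48% of all tested genes were higher in that female. In WT the female was higher for 6 of the 9, and for 49.2% of tested genes. The dbTg-minus-WT difference was larger in the female than in the male pair for all 9 members, and for 50.3% of tested genes. For Postn it was 2.06 between the males and 3.24 between the females, and for Fstl1 0.45 and 1.40. Thbs4 gave 0.81 and 1.53, and Sparc 0.11 and 0.69. For Tgfbi the pairs were almost equal, at 0.96 and 1.00. With 1 mouse of each sex in a group, sex, replicate number and the single mouse cannot be told apart, and a difference between the sexes was not tested.

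**Figure D3:**
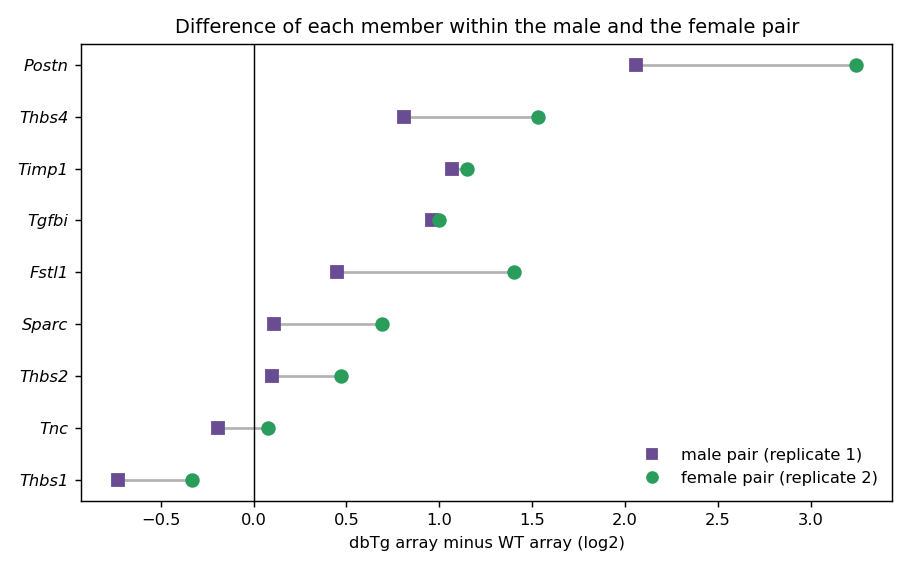
Difference of each measured member (dbTg array minus WT array, log2) within the male pair (squares) and the female pair (circles). The female pair lies to the right for all 9 members, at 3.24 against 2.06 for Postn and at 1.00 against 0.96 for Tgfbi.

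Markers of other cell types were measured beside the members, and their part in the members' differences was not tested. Of 16 markers of macrophages and leukocytes 10 rose and 0 fell, where 2.01% and 0.203% of all tested genes did. Their median difference was 1.78. Their summed level was 9.65 and 9.43 (log2) in dbTg and 7.33 and 7.12 in WT. The lysosomal protease gene Ctss (4.23), Cd68 (3.76), the leukocyte antigen gene Ptprc (2.79) and the complement gene C1qb (2.49) led them. Between the dbTg mice, 6 of these 16 markers were higher in the female. So were 6 of 10 fibroblast markers, 5 of 10 regenerating fibre markers and 7 of 16 collagen genes. Of the lists described below, it held for 10 of 15 TGF-beta genes, 10 of 18 relatives, 8 of 18 receptors and 5 of 16 proteases and inhibitors. Endothelial and smooth muscle markers each had 5 of 8, tendon markers 4 of 7 and fibre markers 4 of 12. The female pair had the larger difference for 7 of 10 fibroblast markers. Across the lists this ran from 1 of 12 fibre markers to 6 of 8 smooth muscle markers. Markers of fibroblasts and adipogenic progenitors had 0 of 10 tested genes past the threshold and a median of 0.50. By the unadjusted p 4 were higher, beside 14% of all tested genes. Their summed level was 10.38 and 10.50 in dbTg and 10.04 and 9.90 in WT. The matrix proteins Dpt (0.74, adjusted p = 0.0542) and Lum (1.34, adjusted p = 0.0618) had the smallest p-values.

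Of 10 markers of regenerating fibres and satellite cells, 5 rose and 0 fell, where 2.01% and 0.203% of all tested genes did. The median was 1.77, and summed levels were 8.26 and 8.39 in dbTg and 6.15 and 5.86 in WT. Those that rose included the embryonic myosin Myh3 (4.03), the fusion protein Mymk (3.21), the adhesion molecule Ncam1 (3.0) and the embryonic light chain Myl4 (1.36). Of the 10, 8 had a positive difference and 2 a negative one. The satellite cell gene Pax7 was 1 of these 2, at -0.28 (limma adjusted p = 0.586). It is named after its value was seen. After quantile normalization Mymk and Myl4 were no longer called (adjusted p = 0.0618 and 0.0635). Of the 8 macrophage and fibre genes named here as rising, Ctss alone kept its call without either dbTg array (adjusted p up to 0.0487). Tendon markers, which matter for Thbs4 and Tnc, had 0 of 7 tested genes past the threshold and a median of 0.00. Their summed level was 6.64 and 6.81 in dbTg and 6.76 and 6.44 in WT. The tendon transcription factor gene Scx differed by 1.16 (adjusted p = 0.0652) and the cartilage matrix gene Chad by -0.91 (adjusted p = 0.321), which was -0.30 without dbTg replicate 1 and -1.52 without dbTg replicate 2. Endothelial markers had 8 of 8 negative differences, beside 5253 of 13308 tested genes, and 0 past the threshold (median -0.50). By the unadjusted p 4 of the 8 were lower, where 4.64% of all tested genes were. For 7 of the 8 both dbTg arrays were below both WT arrays, beside 16.3% of all tested genes. Cdh5 and Kdr were both at -0.85 (adjusted p = 0.0929 and 0.184). Smooth muscle and pericyte markers had 0 of 8 past the threshold (median -0.07), with Abcc9 at -0.51 and Acta2 at 0.91 (adjusted p = 0.136 and 0.153). By the unadjusted p 1 of these 8 was higher and 3 were lower, beside 14% and 4.64% of all tested genes. Fibre markers had 0 of 12 past the threshold (median -0.05), with the glycogen enzyme Pygm at -0.43 and the filament protein Des at 0.41 (adjusted p = 0.151 and 0.176).

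Of the partners of the members in the matrix, 1 gene, a receptor, passed the test. Among 18 tested receptors, of 19 named, 1 rose and 0 fell, where 2.01% and 0.203% of tested genes did. That gene was Cd63, a tetraspanin of the cell surface and of lysosomes to which Timp1 binds. Cd63 read 8.17 and 8.16 in dbTg and 7.12 and 6.93 in WT, and rose 2.2-fold (log2 difference 1.14, SE 0.14, limma adjusted p = 0.0198). Settings that ended its call included those without dbTg replicate 1 and without dbTg replicate 2 (adjusted p = 0.182 and 0.228). The receptors had a median difference of 0.10, and that of all tested genes was 0.089. The receptors' median was 0.34 without WT replicate 1, 0.48 without WT replicate 2 and -0.04 after quantile normalization. By the unadjusted p 6 were higher and 2 were lower, where 14% and 4.64% of all tested genes were.

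Of 16 tested metalloproteinases, related proteases and other inhibitors of the family, of 19 named, 0 passed the threshold. At an unadjusted p under 0.05, 7 were higher and 1 lower, beside 14% and 4.64% of all tested genes. The median was 0.26. Mmp14, a membrane-bound collagenase, read 4.09 and 4.02 in dbTg and 3.01 and 2.98 in WT (difference 1.06, limma adjusted p = 0.0537). Mmp2, a gelatinase that Mmp14 activates, differed by 0.94 (adjusted p = 0.0865). In both, as in Timp1, both dbTg arrays lay above both WT arrays. That held for 8 of the 16 listed genes and for 33.7% of all tested genes. The reverse held for 3 of the 16 and for 16.3% of all tested genes, and 6 of the 16 had a negative difference.

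Genes of collagen assembly and crosslinking had 0 of 16 tested genes past the threshold and a median of 0.50. By the unadjusted p 5 were higher and 0 were lower, where 14% and 4.64% of all tested genes were. For 11 of the 16 both dbTg arrays were above both WT arrays, beside 33.7% of all tested genes. Col3a1 and Col1a1, chains of the fibrillar collagens to which periostin and Sparc bind, differed by 1.24 (adjusted p = 0.0601) and 0.68 (adjusted p = 0.0777). The TGF-beta ligands, receptors, binding proteins and targets had 0 of 15 past the threshold and a median of 0.05. By the unadjusted p 2 were higher and 0 were lower, beside the same 14% and 4.64%. The 2 were Ltbp1, which holds latent TGF-beta in the matrix (0.76, adjusted p = 0.163), and Tgfb1 (0.66, adjusted p = 0.252).

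Close relatives of the members, such as the other thrombospondins, tenascins, the CCN proteins and the SPARC-like proteins, had 0 of 18 tested genes past the threshold, of 23 named. At an unadjusted p under 0.05, 3 were higher and 0 lower, beside 14% and 4.64% of all tested genes. The median was 0.23. Spock2, a SPARC-related proteoglycan, read 4.57 and 3.76 in dbTg and 2.17 and 2.83 in WT (difference 1.66, limma adjusted p = 0.0692). Fst, the gene of follistatin, which binds activin and myostatin, differed by 0.99 (adjusted p = 0.127). Both were higher in the dbTg male than in the dbTg female, the reverse of Postn, Thbs4 and Fstl1. Over the whole list, though, 10 of the 18 tested relatives were higher in the dbTg female.

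**Figure D4:**
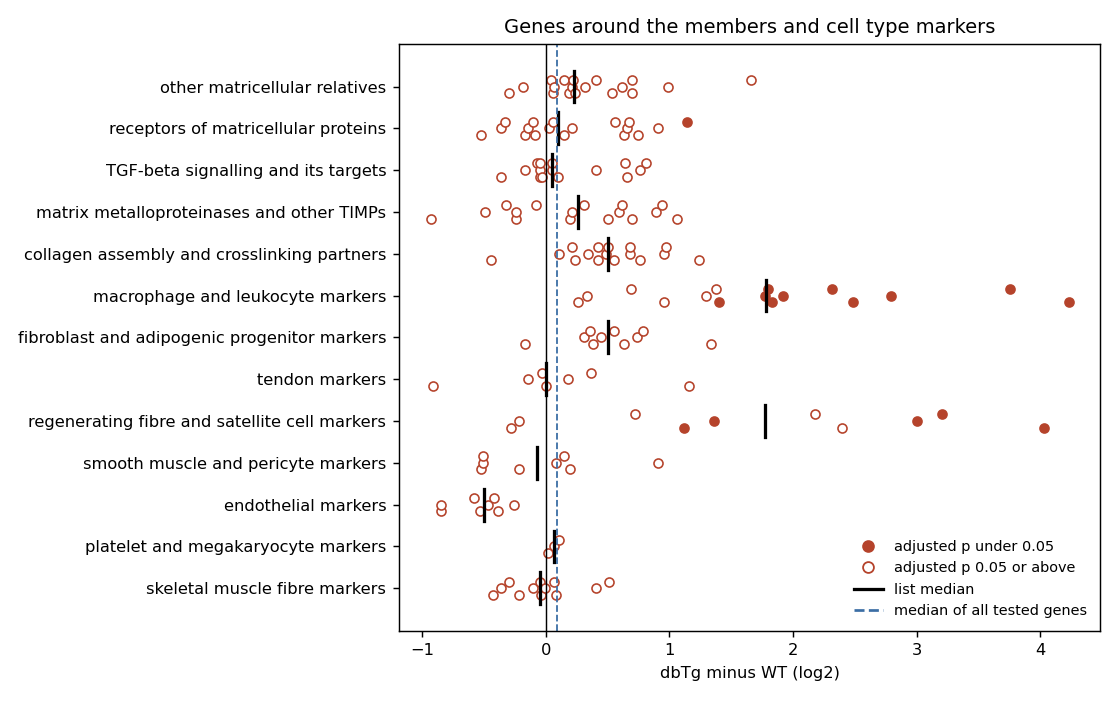
Difference of each tested gene (dbTg minus WT, log2) in the lists of related genes and of cell type markers. Filled points passed the adjusted threshold, thick bars are list medians and the dashed line is the median of all tested genes, 0.089. The medians of macrophage and regenerating fibre markers, 1.78 and 1.77, lie far to the right of those of the matrix lists, which run from 0.05 to 0.50.

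Likeness to Postn was the Euclidean distance between values centred on each gene's mean, ranked with predicted, microRNA and odorant receptor genes left out. The remaining tested genes most like Postn over the 4 arrays were Atf3, Fam71a, Phf11b, Prune2 and Slfn2 (distances 0.35 to 0.57). Atf3, a stress-induced transcription factor gene, was the nearest, with 4.53 and 5.47 in dbTg and 2.02 and 2.42 in WT. Over 4 arrays such likeness is a description of these mice only.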

How the data were processed

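Values were made by the authors with Affymetrix Expression Console (RMA-sketch) and deposited on the log2 scale, per the labels. The software version and annotation build are not stated in the sources used here. Of 41345 probe sets, 23521 carried 1 symbol, 1814 several and 16010 none; 23328 were matched by Entrez identifier to RefSeq (GRCm38.p6), and 0 symbols changed. The brightest probe set by mean over the 4 arrays stood for a gene, and genes not below its 40th percentile (1.48) were tested. The test was limma 3.58.1 under R 4.3.3 (lmFit, trended eBayes, 2 residual degrees of freedom, two-sided, Benjamini-Hochberg), checked on simulated data. Differences are dbTg minus WT, and intervals are limma's 95% intervals.

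The members and lists were chosen with earlier results of these data known. From each list up to 4 genes past the threshold with the largest differences were named, or the 2 with the smallest p-values. Alternatives were median centring, quantile normalization, other filters, averaged probe sets, other eBayes settings, a replicate block and leaving out each array.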

Additional observations from a re-analysis of the deposited data

Results flagged for a closer look

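Among the 9 members and the 35 other genes named singly, 4 had a male and a female pair of opposite sign, which was not tested. Tnc differed by -0.19 between the males and 0.08 between the females. The other genes were the tendon marker Chad (-1.89 and 0.07) and the platelet markers Gp9 (-0.05 and 0.20) and Itga2b (-0.45 and 0.68). None of them passed the threshold in limma.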

How the results depend on the processing

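Of 108 comparisons of the 9 members with other settings, 93 kept direction and side of the threshold, 4 lost a call, 10 gained one and 1 changed sign; for the 35 other named genes, 362, 33, 20 and 3 of 418. The cause of a change was not tested unless the setting itself uses fewer arrays or genes. Members called higher numbered 1, and 3 after median centring, 0 after quantile normalization, 3 with the filter at the 60th percentile, 2 with averaged probe sets, 2 without a trend, 3 with robust eBayes, 0 with the replicate block and 0 to 2 when 1 array was left out; the added calls were those of Timp1 and Tgfbi. With 1 array left out, the lone array of a group is assumed to vary like the other group. At an unadjusted p under 0.05 the count of members was 4 to 6 when 1 array was left out and 5 otherwise. Among all tested genes, 267 were higher (120 after quantile normalization, 165 without a filter, 63 with the replicate block, 4 to 610 with 1 array left out) and 27 lower (7 after quantile normalization, 7 without a filter, 44 with the filter at the 60th percentile, 14 without a trend, 2 with the replicate block, 0 to 156 with 1 array left out). The counts of 4 and 0 are those without either dbTg array. The replicate block is also a block by sex; under it Postn, Cd63, C1qb, Mymk, Myl4 and Prune2 had adjusted p of 0.0572, 0.0589, 0.0593, 0.0768, 0.0904 and 0.0785, and no shared litter or batch is labelled. Deviations of same-numbered arrays from their group means correlated at r = 0.05 across genes. The median difference of all tested genes was -0.002 after quantile normalization and 0.121 after median centring. Tnc was at -0.22 to 0.11 with 1 array left out and at 0.08 in the female pair, and Thbs2 was at 0.07 after quantile normalization. Chad was at 0.07 in the female pair, Gp9 at 0 to 0.15 with 1 array left out and -0.05 in the male pair, and Itga2b at -0.32 to 0.55 with 1 array left out and -0.45 in the male pair. No member had a further probe set with its symbol alone. No call of presence accompanies the values used here, so dim levels such as those of Timp1 and Tnc have no stated distance from background.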
